A study of Rattus norvegicus with 32 samples.

Results

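The collagen genes of the rat uterus were examined in 32 RNA sequencing libraries from 8 groups of 4. The members were all rows of the deposited count table whose gene identifier carries a rat symbol of the form Col, a number, the letter a and a number. This rule found 27 of the 17327 genes of the table. The RefSeq gene table holds 44 such symbols, and the other 17 had no row under this rule and are not analysed here (Col4a2, Col4a5, Col4a6, Col6a1, Col6a3, Col6a5, Col6a6, Col8a2, Col9a3, Col10a1, Col12a1, Col19a1, Col20a1, Col22a1, Col24a1, Col25a1 and Col28a1). Of the 27 members, 24 had enough counts to be tested, and Col2a1, Col9a1 and Col26a1 did not. The members were split into 10 fibrillar collagens (9 tested), 3 type IV basement membrane chains (all tested) and 14 other collagens (12 tested).

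Sprague-Dawley rats of the NCTR colony were studied. Dams received their dose by oral gavage from gestation day 6 until labor, and pups were then gavaged themselves from postnatal day (PND) 1 up to collection of the uterus at PND365. Exposed groups received ethinyl estradiol (EE2), a synthetic estrogen used in contraceptive pills, in doses of 0.05 or 0.5 µg/kg body weight/day. Others received bisphenol A (BPA), a plastic monomer with weak estrogen receptor binding, in doses of 2.5, 25, 250, 2500 or 25000 µg/kg body weight/day, and the vehicle control group received 0.3% carboxymethylcellulose. Groups are named here by agent and dose, and libraries within a group are numbered 1 to 4 in the order of their sample records. Animal, litter, batch and estrous stage are not named in the labels. The p-values therefore reflect the spread between these libraries alone, and a difference in stage or batch between groups was not tested. All 7 comparisons with vehicle share the same 4 vehicle libraries.

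Collagens are secreted proteins in which 3 alpha chains wind into a triple helix. Fibrillar collagens (types I, III, V, XI and others) assemble into the fibrils of the endometrial stroma and of the connective tissue between muscle bundles, type IV chains form the sheet under epithelia, around muscle cells and around vessels, and the remaining types link, anchor or cap these structures. Estrogens are known to act on uterine growth and on its stroma, and the collagen content of the rodent uterus is known to change over the cycle and in pregnancy.

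Total counts per library ran from 11777809 to 24661856. Levels are given in CPM, the count relative to a library size adjusted by the trimmed mean of M-values (TMM). The uterus label was checked with 8 markers, of which 6 were in the table (Hoxd10, Esr1, Pgr, Emx2, Wnt7a and Hand2), and all 6 had counts in every library, the lowest being Wnt7a at 1.17 CPM. In 4 libraries the median correlation of log2 CPM with the other libraries fell under 0.934: BPA 2.5 library 1 (0.892), BPA 250 library 1 (0.911), BPA 2.5 library 3 (0.911) and BPA 25000 library 3 (0.926). Collagen and partner gene calls that rest on these libraries are given with and without them, and cell type markers with them only. Without them BPA 2.5 keeps only libraries 2 and 4, so its comparisons then rest on fewer libraries. The tissue was measured in bulk, so fewer cells of a type and less RNA per cell cannot be told apart.

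Collagen genes took from 0.712% of all counts in BPA 2.5 library 1 (95% Wilson interval 0.708 to 0.716) to 4.48% in BPA 2500 library 3 (4.47 to 4.49). These intervals cover counting error only. Of the counts of the 27 collagens in the table, fibrillar collagens held a median of 73.6% over the 32 libraries (50.6 to 86.5), against 2.79% for the type IV chains and 23.6% for the other collagens. These shares leave out the chains with no row, such as Col4a2, Col6a1, Col6a3 and Col12a1. They also rest on the counts of Col1a2, which were even in every library: with those divided by 2, the fibrillar share had a median of 67.9% (43.9 to 82.9) and that of the other collagens reached 51.0%. These are shares of sequenced counts and not of molecules, since a longer transcript yields more reads and transcript lengths were not used here. Col1a1, Col1a2 and Col3a1 together made up a median of 67.3% of collagen counts (45.7 to 79.7). Col4a1 made up a median of 97.6% of the summed counts of Col4a1, Col4a3 and Col4a4 (82.7 to 99.1), and Col6a2 with Col6a4 a median of 77.8% of the counts of the other collagens (58.5 to 83.7).

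Summed fibrillar levels of the exposed groups lay within the wide spread of the vehicle libraries or overlapped it. It averaged 12600 ± 2547 CPM at EE2 0.05 and 12200 ± 4065 at EE2 0.5 (SD, n = 4 for each group mean here). In the BPA series it averaged 9782 ± 5449 CPM at 2.5, 13360 ± 7194 at 25, 16470 ± 854 at 250, 19220 ± 11640 at 2500 and 13270 ± 6376 at 25000, while vehicle averaged 16090 ± 7629. All 7 exposed groups overlapped vehicle, whose libraries ran from 6815 to 24230 CPM. The type IV sum averaged between 393 ± 57.0 CPM (EE2 0.5) and 565 ± 180 (BPA 2500) in exposed groups, and 494 ± 86.6 in vehicle. The other collagens averaged between 3750 ± 2356 CPM (BPA 2.5) and 6175 ± 3268 (BPA 2500) in exposed groups, and 5745 ± 794 in vehicle. At BPA 250 their share of collagen counts was 18.6% ± 5.91 and that of fibrillar collagens 79.0% ± 6.56, against 28.1% ± 8.28 and 69.6% ± 8.91 in vehicle, with overlapping libraries in both cases. These sums and shares are descriptions and were not tested.

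**Figure D1:**
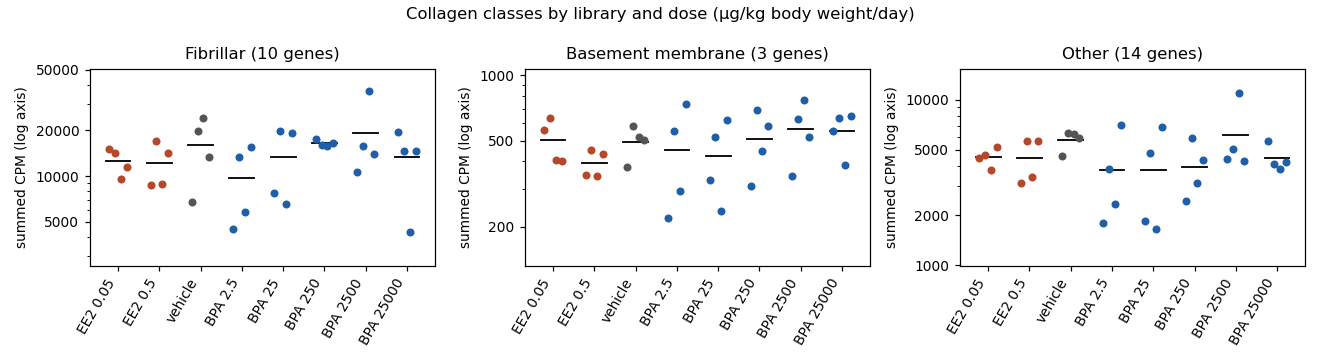
Summed CPM of the fibrillar, type IV and other collagens in each library (points, log axis), with group means as lines and doses in µg/kg body weight/day. Fibrillar sums overlap vehicle in every exposed group, and BPA 2500 library 3 is the highest point for fibrillar and other collagens (36380 and 11050 CPM).

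Few collagen genes passed against vehicle at any dose in edgeR's quasi-likelihood test over all 13312 genes tested (Benjamini-Hochberg adjusted p under 0.05). At BPA 2.5, 2 of 24 collagens rose and none fell: Col23a1 and the type IV chain Col4a3. Over all genes 11.4% were called in that comparison, 7.06% as higher and 4.39% as lower, and 8.33% of the collagens were called, all as higher. DESeq2 called the same 2 collagens (14.8% of all genes). Limma voom with sample weights called 14, of which 5 were higher and 9 lower, with Col1a1, Col1a2, Col3a1 and Col4a1 among the lower. That was 58.3% of the collagens, against 30.8% of all genes. At BPA 250, 1 of 24 rose and none fell: Col11a1, a minor fibrillar chain. The background there was 8.79%, with 4.44% called higher and 4.35% lower, against 4.17% of the collagens. DESeq2 and limma voom each called 2 there, Col11a1 and Col5a2, as higher. That was 8.33% of the collagens with each tool, against 13.8% of all genes with DESeq2 and 22.5% with limma voom.

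In the other 5 comparisons with vehicle, edgeR called none of the 24 collagens. At EE2 0.05 the background was 0.0451%, and 0 collagens had an unadjusted p under 0.05. At EE2 0.5 the background was 0.556%, again with 0 collagens at an unadjusted p under 0.05. At BPA 25 the background was 1.92%, and 3 collagens had an unadjusted p under 0.05. At BPA 2500 no gene of any kind was called, a background of 0%, with 2 collagens at an unadjusted p under 0.05. At BPA 25000 the background was 2.32%, with 2 such collagens. DESeq2 called 0 collagens in all 5 of these comparisons, where it called 0.481%, 3.13%, 7.96%, 0.654% and 5.78% of all genes in the order above. Limma voom with sample weights called 2 at EE2 0.05, 0 at EE2 0.5, 3 at BPA 25, 0 at BPA 2500 and 5 at BPA 25000. As shares of the collagens these were 8.33%, 0%, 12.5%, 0% and 20.8%, where it called 10.3%, 9.17%, 19.9%, 0% and 30.9% of all genes.

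Contrasts over several groups gave few collagen calls by edgeR as well. The mean of the 5 BPA groups against vehicle called 0 of 24 collagens with edgeR (background 1.34%), with 1 at an unadjusted p under 0.05. DESeq2 called 1 (Col11a1), or 4.17% of the collagens against 5.83% of all genes. Limma voom called 5, or 20.8% against 19%. The mean of the 2 EE2 groups against vehicle called 0 (background 0.0676%), with 0 at an unadjusted p under 0.05 and 0 with either other tool. Over all genes DESeq2 called 2.34% there and limma voom 13.9%. The linear trend over log10 dose among the 5 BPA groups called 0 (background 4.62%), with 2 at an unadjusted p under 0.05. DESeq2 called 0 for this trend (8.05% of all genes). Limma voom called 11, of which 8 rose and 3 fell with dose. That was 45.8% of the collagens, against 20.3% of all genes. EE2 0.5 against EE2 0.05 called 0 (background 0.015%), with 0 unadjusted and 0 with DESeq2 (0.0901% of all genes) or limma voom (0.526%). The BPA mean against the EE2 mean called 0 (background 0.841%), with 2 unadjusted and 0 with DESeq2 (2.88% of all genes) or limma voom (3.83%). A test for any difference among the 8 groups called 2 of 24, Col23a1 (adjusted p = 0.01) and Col11a1 (adjusted p = 0.0493), against a background of 31.7%. For the same test DESeq2 called 6 of 24, or 25% of the collagens against 43.3% of all genes. Limma voom called 17 of 24, or 70.8% against 69.3%. In edgeR the next smallest values, Col11a2 (adjusted p = 0.0726) and Col7a1 (adjusted p = 0.0765), did not pass.

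**Figure D2:**
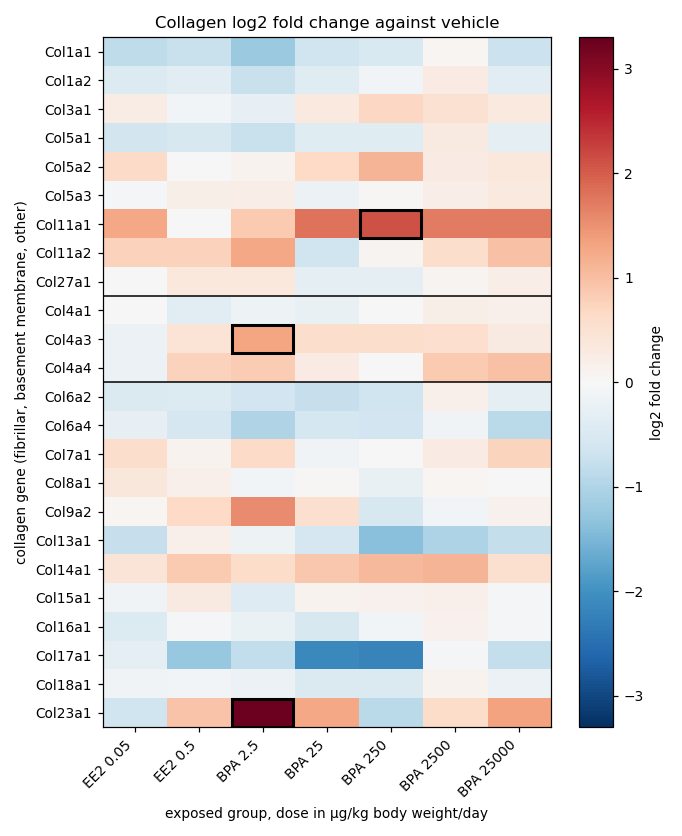
Log2 fold change against vehicle of the 24 tested collagens (rows, grouped as fibrillar, type IV and other) in the 7 exposed groups (columns, dose in µg/kg body weight/day); red is higher and blue lower than vehicle. Boxes mark the 3 cells with an edgeR adjusted p under 0.05: Col23a1 and Col4a3 at BPA 2.5 and Col11a1 at BPA 250.

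The type I chains, the main fibril formers of skin, bone and uterine stroma, varied widely within groups, vehicle included. Over the 28 exposed libraries Col1a1 ran from 843 to 10470 CPM, and in vehicle it stood at 1518, 6058, 7526 and 3647 CPM. At BPA 2.5 Col1a1 was 843, 2096, 1240 and 3909 CPM, a log2 fold change of -1.21 (SE 0.55) that did not pass (edgeR, adjusted p = 0.149). Its fold change was below 0 in 6 of the 7 exposed groups, BPA 2500 (0.05) being the exception. The values were -0.84 at EE2 0.05 (SE 0.54, adjusted p = 0.564), -0.74 at EE2 0.5 (SE 0.54, adjusted p = 0.544) and -0.80 for the EE2 mean (SE 0.46, adjusted p = 0.426), none of them called by edgeR. Col1a2 showed smaller values of the same kind, between -0.74 (BPA 2.5) and 0.27 (BPA 2500) on the log2 scale, none called by edgeR. Limma voom called Col1a1 and Col1a2 lower at BPA 2.5, and Col1a2 as rising with BPA dose.

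The count of Col1a1 per count of Col1a2 was lower on average in every exposed group than in vehicle. It averaged 0.454 ± 0.0234 at EE2 0.05, 0.450 ± 0.0298 at EE2 0.5, 0.412 ± 0.0772 at BPA 2.5, 0.458 ± 0.0955 at BPA 25, 0.450 ± 0.0695 at BPA 250, 0.487 ± 0.0505 at BPA 2500 and 0.476 ± 0.0760 at BPA 25000. In vehicle it averaged 0.566 ± 0.0784 (SD, n = 4 each), with single libraries at 0.466, 0.617, 0.639 and 0.542. The ratio was not tested, and each exposed group reached into the vehicle range. The counts of Col1a2 were even numbers in all 32 libraries, which held for 1 of the 21 collagens with a count in every library and for 165 of all 11778 such genes (1.4%). The cause was not tested. Fold changes of Col1a2 do not depend on a constant factor, but class shares and this ratio do: with its counts divided by 2, type IV chains held a median of 3.35% of collagen counts and other collagens 28.6%, and the Col1a1 to Col1a2 ratio had a median of 0.921 (0.650 to 1.28). The annotation also places Col1a1 in overlap with Sgca (0.416 to 6.09 CPM), a small level beside that of Col1a1, and whether the counting used strand is not given in the sources used here.

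Col3a1, the type III chain of thin reticular fibrils in extensible tissue, stood at 4127, 3696, 3958 and 5164 CPM at BPA 250, against 1481, 3089, 3780 and 2217 in vehicle. Of the 4 BPA 250 libraries 1 lay under the highest vehicle library, and the log2 fold change of 0.68 did not pass. In the other exposed groups its log2 fold change lay between -0.26 (BPA 2.5) and 0.51 (BPA 2500), none called by edgeR. Limma voom called Col3a1 lower at BPA 2.5, higher at BPA 25000 and as rising with BPA dose. The Col3a1 to Col1a1 ratio of counts was 0.952 to 1.71 at BPA 250 and 1.01 to 1.35 at EE2 0.05, against 0.502 to 0.976 in vehicle, as a description. BPA 25000 library 3, one of the libraries that stood apart, held 730 CPM of Col3a1, while the other 3 of that group held 3774 to 4375.

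**Figure D3:**
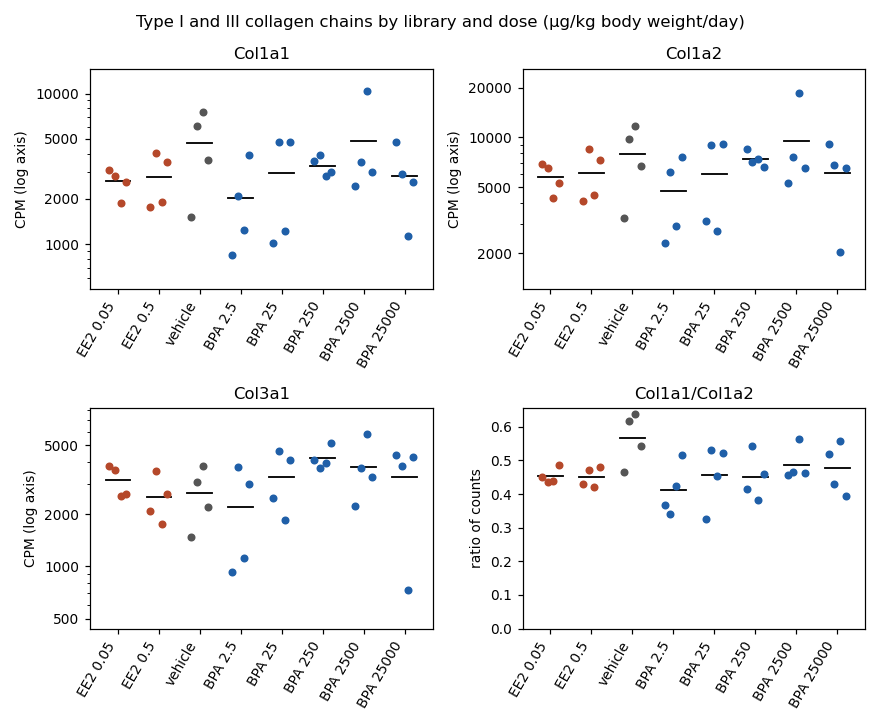
CPM of Col1a1, Col1a2 and Col3a1 in each library (points, log axis) and the ratio of Col1a1 to Col1a2 counts (linear axis from 0), with group means as lines. The exposed groups average ratios of 0.412 to 0.487, and vehicle libraries 2 and 3 hold the highest single ratios (0.617 and 0.639).

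Type V and type XI chains, which form the core of fibrils and limit their width, held the fibrillar call. Col11a1, best known as a cartilage chain and found at a low level in uterine tissue here, was 51.5, 26.9, 34.9 and 20.4 CPM at BPA 250, against 2.33, 7.33, 17.8 and 3.41 in vehicle. Every BPA 250 library was above every vehicle library. The log2 fold change was 2.11 (SE 0.65, edgeR adjusted p = 0.0416). Without the 4 libraries that stood apart it was 1.84 and missed the threshold (adjusted p = 0.0559). The call was also lost without any one of vehicle libraries 1, 2 or 4 or BPA 250 libraries 1, 3 or 4 (log2 fold change 1.81 to 2.29, adjusted p from 0.0565 to 0.119).

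Col11a1 was above the vehicle mean at the other BPA doses too, without passing in edgeR, though limma voom called it at BPA 25 and BPA 25000. It was 11.3, 20.01, 11.9 and 12.9 CPM at BPA 2.5 and 12.98, 47.98, 13.2 and 32.8 at BPA 25, with log2 fold changes of 0.86 and 1.79 (SE 0.64, adjusted p = 0.0988 at BPA 25). It was 9.15, 30.9, 44.7 and 15.98 CPM at BPA 2500 (log2 fold change 1.70, SE 0.64, adjusted p = 0.357). At BPA 25000 it was 31.5, 34.6, 2.03 and 33.8 CPM (1.72, SE 0.64, adjusted p = 0.136), the low value being library 3. Leaving that library out brought the BPA 25000 comparison to 1 collagen called.

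For the mean of the 5 BPA groups Col11a1 had a log2 fold change of 1.64 (SE 0.55, edgeR adjusted p = 0.103). At EE2 0.05 it was 29.8, 24.6, 10.4 and 9.76 CPM (1.27, SE 0.64, adjusted p = 0.452), and at EE2 0.5 it was 11.1, 8.17, 7.38 and 4.25 CPM, with group means of 7.73 there and 7.71 in vehicle. The difference between the EE2 doses was -1.27 on the log2 scale for EE2 0.5 over EE2 0.05 (SE 0.64, adjusted p = 0.555). That between the BPA mean and the EE2 mean was 1.01 (SE 0.39, adjusted p = 0.217). The slope of Col11a1 over dose within the BPA groups was 0.16 on the log2 scale per 10-fold dose and was not called.

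Markers of cartilage and bone, the tissues best known for Col11a1, did not stand higher at BPA 250: their 9 listed genes, all in the table and none at 0 throughout either group, summed to 39.6 to 76.9 CPM at BPA 250 and 45.4 to 150 in vehicle. Col2a1, the main cartilage collagen, had 0 counts in all libraries of both groups. Fibroblast marker sums, in contrast, did not overlap: the 8 listed, all present, summed to 12570 to 15440 CPM at BPA 250 and 4333 to 6643 in vehicle, and without the matrix genes Dcn and Lum to 2283 to 2988 and 1672 to 1885. This was not particular to BPA 250. The full list was also above the vehicle range at EE2 0.05 (7557 to 11070 CPM) and BPA 25 (8191 to 11580). Without Dcn and Lum the same held at EE2 0.05 (2328 to 3287), EE2 0.5 (2197 to 2726), BPA 25 (2009 to 2852) and BPA 2500 (1953 to 2663). Mesothelium markers, of which only 2 of 4 were in the table, did not overlap either, with 169 to 179 CPM at BPA 250 and 113 to 139 in vehicle. Single markers of other cell types passed at BPA 250 as well (edgeR): the fat cell marker Lpl (log2 fold change 2.50, adjusted p = 0.0181), the macrophage marker Cd163 (2.58, adjusted p = 0.0217) and the endothelial Emcn (0.96, adjusted p = 0.0422) were higher, and the smooth muscle marker Smtn (-0.83, adjusted p = 0.0425) and the cartilage marker Matn1 (-4.63, adjusted p = 0.0445) lower. The uterus marker Emx2 was higher (0.53, adjusted p = 0.0265). The summed markers of these lists overlapped between BPA 250 and vehicle. Matn1 was 0.604, 8.81, 0.580 and 49.6 CPM in vehicle and 0, 0.318, 1.16 and 1.04 at BPA 250, so its value rests on vehicle libraries 2 and 4. Emcn was highest in BPA 250 library 1 (99.3 CPM), which stood apart, and libraries 2 and 4 lay within the vehicle range. Lpl, Cd163 and Smtn were also called at BPA 25, and Cd163 at BPA 2.5 too. The part of these markers in the collagen results was not tested.

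The window of 250 bases before the RefSeq start of Col11a1 (GRCr8, chr2:204508886-204509135, plus strand) is shown because it is the fibrillar gene called, beside that of Col1a2 (chr4:33518307-33518556, plus strand), a type I chain. Capitals mark every match to 5 motifs, read on either strand. The TATA box was searched with the letters TATAAA, and the box named CCAAT by its name. The sequence of the GC box was GGGCGG, while AP-1 sites were searched with TGANTCA. A single arm of the estrogen response element was searched as GGTCA.
Col11a1: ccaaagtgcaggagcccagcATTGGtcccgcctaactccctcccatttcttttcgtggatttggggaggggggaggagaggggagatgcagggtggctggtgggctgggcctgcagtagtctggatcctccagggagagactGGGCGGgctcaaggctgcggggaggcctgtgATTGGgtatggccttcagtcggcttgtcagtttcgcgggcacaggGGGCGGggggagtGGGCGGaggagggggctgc
Col1a2: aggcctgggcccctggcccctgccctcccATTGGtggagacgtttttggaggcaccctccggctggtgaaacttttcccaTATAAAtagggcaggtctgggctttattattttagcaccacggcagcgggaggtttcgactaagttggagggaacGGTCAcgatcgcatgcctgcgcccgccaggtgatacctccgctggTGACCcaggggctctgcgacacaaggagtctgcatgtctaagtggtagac
The Col11a1 window held CCAAT and GC boxes and none of the other motifs. The Col1a2 window held a TATA box, a CCAAT box and single arms, and no GC box.

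Col5a2, a type V chain, was 1161, 973, 1192 and 1513 CPM at BPA 250, against 354, 625, 777 and 466 in vehicle, again without overlap. Its log2 fold change of 1.12 (SE 0.37) just missed the threshold in edgeR (adjusted p = 0.0513) and passed with DESeq2 and limma voom. It was called in place of Col11a1 when the libraries that stood apart were left out. Col5a2 was 0.66 at BPA 25 (SE 0.36, adjusted p = 0.263) and 0.62 at EE2 0.05 (SE 0.36, adjusted p = 0.525) on the log2 scale by edgeR. At EE2 0.5 and the other BPA doses it lay between -0.01 and 0.35. Its partner Col5a1 did not share the direction, with a log2 fold change of -0.41 at BPA 250. That of Col5a1 was below 0 in every exposed group but BPA 2500 (0.30), none called by edgeR. Limma voom called Col5a1 lower at BPA 2.5 and as rising with BPA dose.

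The count of Col5a2 per count of Col5a1 is given as a description, with no test. It was 4.17 to 5.49 at EE2 0.05 and 2.07 to 5.02 at EE2 0.5. In the BPA series it was 2.28 to 6.78 at 2.5, 2.89 to 9.25 at 25, 3.81 to 8.87 at 250, 1.16 to 3.71 at 2500 and 1.69 to 4.96 at 25000, and in vehicle 1.80 to 2.50. All libraries of EE2 0.05, BPA 25 and BPA 250 lay above the vehicle range, and those of EE2 0.5, BPA 2.5, BPA 2500 and BPA 25000 overlapped it.

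**Figure D4:**
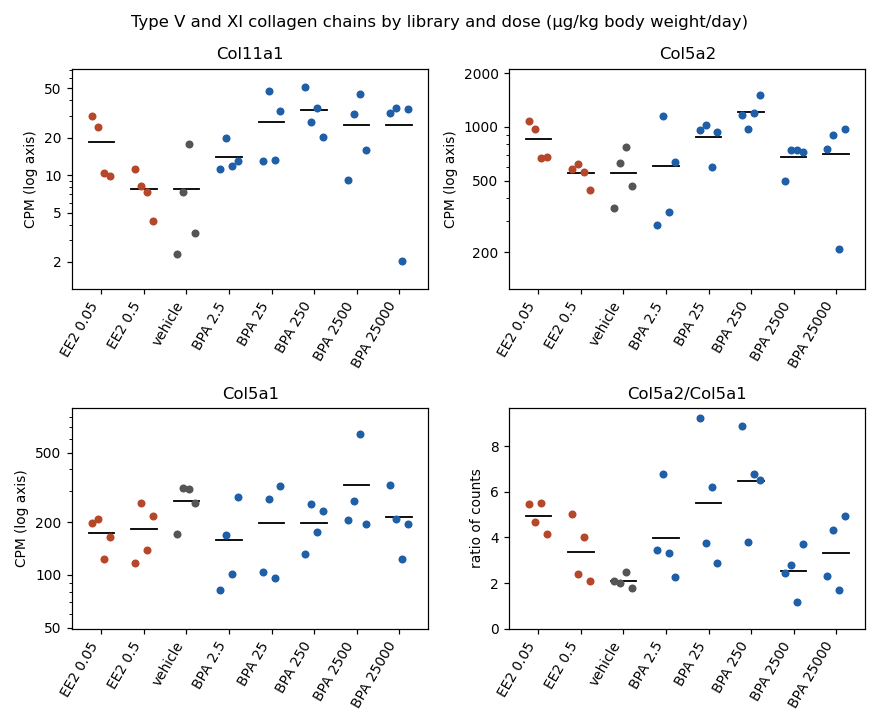
CPM of Col11a1, Col5a2 and Col5a1 in each library (points, log axis) and the ratio of Col5a2 to Col5a1 counts (linear axis from 0), with group means as lines. Col11a1 and Col5a2 at BPA 250 lie above all 4 vehicle libraries, Col5a1 does not, and the ratio at BPA 250 is 3.81 to 8.87 against 1.80 to 2.50 in vehicle.

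The remaining fibrillar chains were at low levels. Col11a2, a partner of Col11a1 in type XI fibrils, was 5.20, 2.77, 8.40 and 4.65 CPM at BPA 2.5, against 1.90, 2.07, 1.67 and 2.995 in vehicle (log2 fold change 1.28, SE 0.52, edgeR adjusted p = 0.106), with 1 BPA 2.5 library inside the vehicle range. It was 0.98 at BPA 25000 (SE 0.51, adjusted p = 0.295) and 0.76 at EE2 0.5 (SE 0.51, adjusted p = 0.511). Col27a1, a fibrillar chain of cartilage in mouse, was among the smallest p-values at EE2 0.5 with 0.35 (SE 0.26, adjusted p = 0.549). Col5a3, a further type V chain, was called nowhere. Col2a1 had at most 5 counts in any library.

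As a class, the 9 tested fibrillar collagens all had a positive log2 fold change at BPA 2500 (0.05 to 1.70, median 0.28, median over all genes 0.01), though none was called. Their 9 slopes over BPA dose were all positive too (0.01 to 0.17 per 10-fold dose, median 0.14, median over all genes 0.00), with none called by edgeR. Limma voom called Col1a2, Col3a1, Col5a1 and Col5a2 as rising with dose, and DESeq2 called none. Without the libraries that stood apart, the median edgeR slope over all 24 tested collagens was 0.029 in place of 0.065. At the other doses the class was mixed, with 5 positive and 4 negative at BPA 2.5 and at BPA 250, 3 and 6 at BPA 25, 6 and 3 at BPA 25000, 5 and 4 at EE2 0.05 and 3 and 6 at EE2 0.5. The members were measured in the same libraries, so these counts of sign are not independent. BPA 2500 library 3 had 14 of the 24 tested collagens among the highest 6 of 32 libraries, and BPA 2.5 library 1 had 13 among the lowest 6.

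In the basement membrane class edgeR called Col4a3 as higher at the lowest BPA dose and Col4a1 at none. Limma voom called Col4a1 lower at BPA 2.5 and as rising with BPA dose. Col4a1, which makes the common type IV trimer with Col4a2, was 182, 533, 264 and 730 CPM at BPA 2.5, against 370, 570, 513 and 483 in vehicle. Its log2 fold change lay between -0.35 (EE2 0.5) and 0.18 (BPA 2500) in the 7 comparisons with vehicle, none called by edgeR. Col4a3, which with Col4a4 and Col4a5 makes the trimer known from kidney and lung basement membranes, was 35.9, 19.4, 26.5 and 9.50 CPM at BPA 2.5, against 5.001, 10.8, 4.57 and 16.9 in vehicle. It was above the highest vehicle library in 3 of 4 libraries (log2 fold change 1.29, SE 0.42, edgeR adjusted p = 0.0412). Without the libraries that stood apart, which include BPA 2.5 libraries 1 and 3, it was 0.64 (adjusted p = 0.511).

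Col4a3 had smaller positive values at the other BPA doses: 0.57 at 25, 0.57 at 250, 0.56 at 2500 (SE 0.41, edgeR adjusted p = 0.689) and 0.29 at 25000 on the log2 scale. Its slope over dose was -0.20 per 10-fold dose (SE 0.09, adjusted p = 0.184) and did not pass. It was -0.20 at EE2 0.05 and 0.45 at EE2 0.5, and the BPA mean over the EE2 mean gave 0.53 (adjusted p = 0.328). Col4a4 lay under 3 CPM in every library and had a log2 fold change of 0.84 at BPA 2.5, 0.88 at BPA 2500 and 0.96 at BPA 25000, none called.

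The windows before the starts of Col4a3 (GRCr8, chr9:91323740-91323989, plus strand) and Col4a4 (chr9:91323578-91323827, minus strand) are shown because these genes start 413 bases apart on opposite strands and their windows share 88 bases. That of Col23a1 (chr10:36050077-36050326, plus strand) is the other gene called at BPA 2.5. Capitals mark the same 5 motifs.
Col4a3: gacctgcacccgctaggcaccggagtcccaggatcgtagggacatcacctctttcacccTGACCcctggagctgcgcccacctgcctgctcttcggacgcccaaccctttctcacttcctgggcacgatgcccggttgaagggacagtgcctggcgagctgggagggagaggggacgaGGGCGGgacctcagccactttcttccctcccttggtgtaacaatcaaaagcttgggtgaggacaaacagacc
Col4a4: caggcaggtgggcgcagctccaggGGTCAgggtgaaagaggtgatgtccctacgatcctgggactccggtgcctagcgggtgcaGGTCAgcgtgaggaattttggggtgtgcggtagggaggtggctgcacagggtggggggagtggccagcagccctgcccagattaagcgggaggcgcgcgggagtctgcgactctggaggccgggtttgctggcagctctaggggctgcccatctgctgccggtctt
Col23a1: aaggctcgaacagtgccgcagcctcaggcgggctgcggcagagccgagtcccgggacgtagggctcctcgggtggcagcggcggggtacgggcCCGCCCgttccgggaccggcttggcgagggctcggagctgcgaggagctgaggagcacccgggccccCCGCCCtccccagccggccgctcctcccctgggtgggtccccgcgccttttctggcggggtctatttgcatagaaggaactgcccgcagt
The Col4a3 window held a GC box and a single arm, that of Col4a4 single arms only, and that of Col23a1 GC boxes only.

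Col23a1, a transmembrane collagen that can be shed from the cell surface, gave the largest collagen fold change of the 7 comparisons with vehicle. It was 25.2, 1.69, 19.5 and 1.91 CPM at BPA 2.5, against 0.431, 3.33, 0.652 and 0.627 in vehicle (log2 fold change 3.25, SE 1.00, edgeR adjusted p = 0.0333). Only libraries 1 and 3 of BPA 2.5, both among those that stood apart, lay above the vehicle range, and without the libraries that stood apart the log2 fold change was 0.52 (adjusted p = 0.837). Markers of motile cilia, of which 6 of 8 were in the table, summed to 460, 3.46, 333 and 3.63 CPM in the same 4 libraries and to 3.28, 1.26, 2.03 and 3.48 in vehicle. The libraries high in Col23a1 were thus those high in ciliated cell markers. The same libraries 1 and 3 were also high in mesothelium markers, of which only 2 of 4 were in the table (249 and 199 CPM, against 113 to 139 in vehicle). They were low in smooth muscle markers (12460 and 13860 CPM, against 20230 to 39500 in vehicle) and uterus markers (428 and 395 CPM, against 623 to 737 in vehicle). Stratified epithelium markers were above vehicle in all 4 BPA 2.5 libraries (28.4 to 39.3 CPM, against 2.54 to 5.71 in vehicle). This was not particular to BPA 2.5, since all libraries of EE2 0.05 (7.25 to 418 CPM), EE2 0.5 (32.8 to 232) and BPA 25 (7.38 to 11.9) were above vehicle too. The part of these cells in the Col23a1 and Col4a3 results was not tested.

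Among the other BPA doses the cilia sum was 25.8 to 46.7 CPM at BPA 25 and 5.36 to 135 at BPA 2500, while Col23a1 was 0.885 to 5.22 and 0.225 to 3.51 CPM there. At BPA 25000 Col23a1 had a log2 fold change of 1.34 (SE 0.96, edgeR adjusted p = 0.463). Its slope over BPA dose was -0.45 per 10-fold dose (SE 0.21, adjusted p = 0.193). BPA 250 library 1 had 0 counts, and the group's other libraries stood at 0.318, 2.41 and 0.231 CPM.

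**Figure D5:**
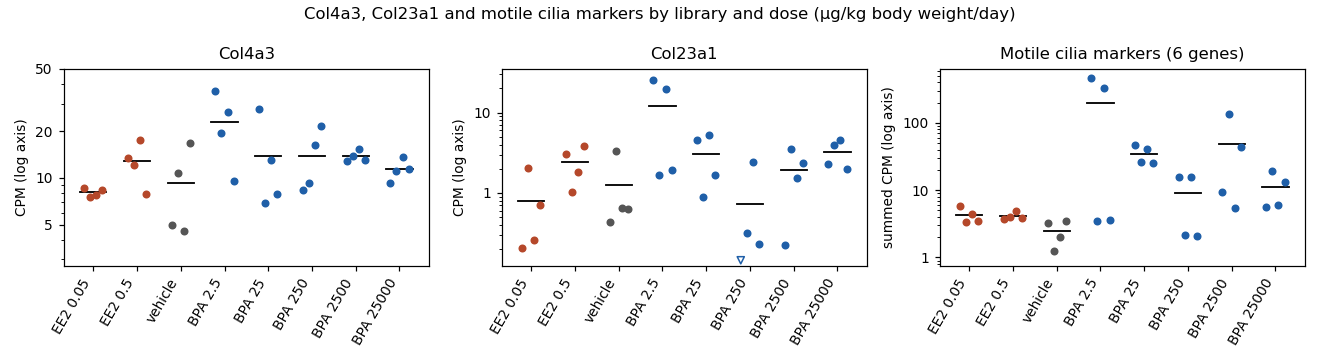
CPM of Col4a3, Col23a1 and the sum of 6 motile cilia markers in each library (points, log axis), with group means as lines; the open triangle stands for 0 counts. BPA 2.5 libraries 1 and 3 are the highest points for Col23a1 (25.2 and 19.5 CPM) and for the cilia sum (460 and 333 CPM).

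Collagens of the basement membrane zone did not pass in any comparison with edgeR. Limma voom called Col7a1 higher at BPA 2.5 and BPA 25000. It called Col15a1 lower at BPA 2.5 and as rising with BPA dose. For any difference among the 8 groups, DESeq2 called Col7a1, and limma voom called Col7a1 and Col15a1. Col7a1, which forms the anchoring fibrils under stratified epithelium, was 52.2, 48.7, 78.3 and 45.5 CPM at BPA 25000, against 22.7, 50.03, 28.6 and 33.4 in vehicle (log2 fold change 0.74, SE 0.29, edgeR adjusted p = 0.151). It was 0.58 at EE2 0.05 (SE 0.29, adjusted p = 0.445) and 0.63 at BPA 2.5 (adjusted p = 0.153). Markers of stratified epithelium, 6 of 8 in the table, summed to 4.06 to 9.05 CPM at BPA 25000 and 7.25 to 418 at EE2 0.05, against 2.54 to 5.71 in vehicle, and their part in these values was not tested. Col15a1 and Col18a1 are the sources of restin and endostatin that lie beside vessel and muscle basement membranes. They stayed between -0.48 and 0.29 on the log2 scale in the 7 comparisons with vehicle, none called by edgeR.

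Type VI chains, which form beaded filaments around cells, were lower than vehicle on average in most groups without passing in edgeR. Col6a2 was 1104, 3090, 1776 and 2127 CPM at BPA 250, against 2326, 3823, 3617 and 3106 in vehicle, and its log2 fold change lay between -0.76 (BPA 25) and 0.16 (BPA 2500). Col6a4 was 330, 1726, 496 and 1313 CPM at BPA 250, against 1510, 1320, 1412 and 1776 in vehicle, where its libraries were close together. Its log2 fold change was below 0 in all 7 exposed groups (-0.98 at BPA 2.5 to -0.11 at BPA 2500), none called by edgeR. Limma voom called Col6a2 and Col6a4 lower at BPA 2.5, Col6a4 lower for the BPA mean and Col6a2 as rising with BPA dose. Col6a4 overlaps Rpl29 (42.6 to 184 CPM) in the annotation, so part of its counts could be shared without strand. At BPA 250, 9 of the 12 tested other collagens had a negative fold change (median -0.51, median over all genes -0.02), with none called.

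Transmembrane and fibril-associated collagens varied widely within groups. Col17a1, the hemidesmosome collagen of stratified epithelia, ranged from 0.0557 to 131 CPM over all libraries. It was 0.0557, 28.99, 4.01 and 9.06 CPM at BPA 250, against 25.9, 10.8, 131 and 29.3 in vehicle (log2 fold change -2.21, SE 0.97, edgeR adjusted p = 0.132). At BPA 25 it was 4.33, 14.9, 3.13 and 22.5 CPM (-2.13, SE 0.97, adjusted p = 0.176), so the lowest values stood in BPA groups but the groups overlapped. Col13a1, a transmembrane collagen of cell adhesions, was -1.38 at BPA 250 and -1.02 at BPA 2500 (SE 0.69, adjusted p = 0.651), neither called.

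Col14a1, a fibril-associated collagen of mature fibrils, was 207, 116, 99.6 and 141 CPM at BPA 250, against 26.4, 66.5, 114 and 62.0 in vehicle (log2 fold change 1.07, SE 0.53, edgeR adjusted p = 0.184). It was 1.12 at BPA 2500 (SE 0.53, adjusted p = 0.479) and 0.87 at EE2 0.5 (SE 0.53, adjusted p = 0.454). Its fold change was positive in all 7 exposed groups (0.42 to 1.12), none called by edgeR. Limma voom called Col14a1 higher at BPA 25 and for the BPA mean. Col16a1, another fibril-associated chain, was -0.53 at BPA 25 (SE 0.24, adjusted p = 0.173) and -0.46 at EE2 0.05 (SE 0.24, adjusted p = 0.477). Its slope over BPA dose was 0.10 per 10-fold dose (adjusted p = 0.252). Col9a2, a chain of the cartilage type IX collagen, had a slope of -0.35 (adjusted p = 0.266), and Col8a1, of vessel wall networks, gave -0.32 for the BPA mean over the EE2 mean (adjusted p = 0.634). Col9a1 had at most 17 counts in a library, in BPA 2.5 library 3, and Col26a1 at most 4.

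The proteins that fold, process, bind and recognise collagens were read from the same fit. Their lists were picked gene by gene and not by a symbol rule, with earlier results of these data known. Among 13 tested proteoglycans and glycoproteins that bind fibrils, 4 rose and none fell at BPA 250, the dose at which Col11a1 was called (median log2 fold change of the list 0.62, median over all genes -0.02). Over all genes 4.44% were called higher there, and the fibroblast markers other than Dcn and Lum summed to 2283 to 2988 CPM at BPA 250, against 1672 to 1885 in vehicle. These marker sums were also above the vehicle range at EE2 0.05, EE2 0.5, BPA 25 and BPA 2500. Decorin (Dcn), which coats type I fibrils, was 11570, 10180, 11410 and 12160 CPM at BPA 250, against 2601, 4074, 4849 and 3668 in vehicle (log2 fold change 1.58, SE 0.40, edgeR adjusted p = 0.0186). Lumican (Lum, 1.61, adjusted p = 0.0297), asporin (Aspn, 1.35, adjusted p = 0.0428) and thrombospondin 2 (Thbs2, 1.85, adjusted p = 0.011) rose as well. Aspn counts were even in all libraries, as those of Col1a2 were. Thbs2 also rose at BPA 25 (1.69, adjusted p = 0.0393) and for the BPA mean (1.35, adjusted p = 0.0476), and Thbs1 at BPA 25000 (1.44, adjusted p = 0.0452). No member of this list passed at either EE2 dose, BPA 2.5 or BPA 2500. Biglycan (Bgn), a relative of decorin, had 0.25 at BPA 250 (adjusted p = 0.506).

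Of 18 tested collagen modifying and folding enzymes, 2 fell at BPA 2.5: P3h4 (-0.82, edgeR adjusted p = 0.0229), a partner of lysyl hydroxylase, and Tmem38b (-0.60, adjusted p = 0.0273), an endoplasmic reticulum ion channel. Over all genes 4.39% were called lower at BPA 2.5, and 11.4% in either direction. Plod3, a lysyl hydroxylase and glycosyltransferase, fell at BPA 250 (42.6 ± 7.42 CPM there and 70.1 ± 5.83 in vehicle, SD, n = 4 each; log2 fold change -0.72, adjusted p = 0.0385). It rose with BPA dose (log2 slope 0.19 per 10-fold dose, adjusted p = 0.0301), while Crtap, a subunit of the prolyl 3-hydroxylation complex whose counts were even in all 32 libraries, fell with dose (-0.16, adjusted p = 0.0237). The collagen chaperone Serpinh1 was -0.88 at BPA 2.5 (adjusted p = 0.0543) and -0.20 at BPA 250, and the prolyl hydroxylase subunit P4ha1 0.17 at BPA 250, none called.

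Processing and cross-linking enzymes gave 1 call among 11 tested at BPA 2.5, where 4.39% of all genes were called lower. Loxl4, a lysyl oxidase, fell there (3.80, 11.1, 5.13 and 6.50 CPM, against 8.11, 15.8, 15.7 and 13.7 in vehicle, log2 fold change -1.01, edgeR adjusted p = 0.0465). The related Loxl1 rose with BPA dose (log2 slope 0.20 per 10-fold dose, adjusted p = 0.0436). Lox itself had a log2 fold change of 1.17 at BPA 250 (adjusted p = 0.0877) and 1.15 at BPA 25 (adjusted p = 0.117), neither called.

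Of 14 tested partners of type IV collagen in basement membranes, 2 fell and none rose at BPA 250, where 4.35% of all genes were called lower. Lamb2, a laminin beta chain, was 418, 503, 554 and 387 CPM at BPA 250, against 657, 922, 683 and 843 in vehicle, without overlap (log2 fold change -0.74, SE 0.20, edgeR adjusted p = 0.0265). Lamc3, a laminin gamma chain, fell too (-1.47, adjusted p = 0.0305), while Lamc1 had 0.28 (adjusted p = 0.47). Frem2 rose at BPA 2.5 (2.17, adjusted p = 0.0372), where it was 21.8, 5.31, 10.7 and 2.10 CPM and so highest in the same libraries 1 and 3 that were high in Col23a1. Nid2, a nidogen that joins laminin to type IV collagen, rose at BPA 25000 (1.85, adjusted p = 0.0303) and with BPA dose (log2 slope 0.36 per 10-fold dose, adjusted p = 0.0365). At BPA 25000 libraries 2 and 4 held 322 and 211 CPM of Nid2, libraries 1 and 3 only 53.6 and 40.6, and vehicle 27.9 to 51.9.

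Among 8 tested collagen receptors, 2 rose at BPA 2.5, where 7.06% of all genes were called higher. Ddr1, the discoidin domain receptor of epithelia, was 209, 110, 160 and 125 CPM at BPA 2.5, against 88.6, 49.5, 82.9 and 77.9 in vehicle, without overlap (log2 fold change 1.02, SE 0.23, edgeR adjusted p = 0.00547). Itga10, a collagen-binding integrin chain, rose there (1.37, adjusted p = 0.0468) and at BPA 250 (1.89, adjusted p = 0.0152). Its BPA 250 libraries stood at 17.03, 3.13, 17.8 and 4.97 CPM, against 1.64, 2.74, 3.70 and 3.41 in vehicle, with libraries 1 and 3 the highest.

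None of 6 tested collagen-degrading enzymes was called by edgeR in any of the 13 comparisons. Per comparison with vehicle, between 0 and 2 of them had an unadjusted p under 0.05, while DESeq2 called 1 at EE2 0.5 and 1 at BPA 25000, and limma voom called 0 to 3. Over all genes DESeq2 called 3.13% at EE2 0.5 and 5.78% at BPA 25000, and limma voom 0% to 30.9% per comparison. Over all 6 partner lists edgeR called no gene at EE2 0.05, EE2 0.5 or BPA 2500, where it called 0.0451%, 0.556% and 0% of all genes. At EE2 0.5 the 6 lists together had 12 of 70 tested genes with an unadjusted p under 0.05. DESeq2 called 2 there (2.86%, against 3.13% of all genes) and limma voom 9 (12.9%, against 9.17%). At EE2 0.05 the same counts were 7, 0 and 6, where DESeq2 called 0.481% and limma voom 10.3% of all genes, against 8.57% of the partners with limma voom. At BPA 2500 they were 5, 0 and 0, where DESeq2 called 0.654% and limma voom 0% of all genes.

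The test for any difference among the 8 groups called 14 of 70 tested partner genes, a share of 20% that was below the 31.7% of all genes. They were Plod3, Plod2 and Tmem38b of the modifying enzymes, Loxl1, the fibril-binding Dcn, Thbs2, Aspn and Lum, the basement membrane genes Lamb2, Fras1 and Nid2, and the receptors Ddr1, Itga10 and Itga11 (edgeR, adjusted p from 0.000228 for Ddr1 to 0.0488 for Itga10).

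Without the libraries that stood apart, none of the 6 partner genes called at BPA 2.5 passed, in a fit that kept only libraries 2 and 4 of that group. Frem2 was then 0.74 on the log2 scale in place of 2.17 (edgeR adjusted p = 0.664), Loxl4 -0.59 in place of -1.01 (adjusted p = 0.441) and Ddr1 0.66 in place of 1.02 (adjusted p = 0.148). P3h4 was -0.61 (adjusted p = 0.261), Tmem38b -0.47 (adjusted p = 0.249) and Itga10 larger than before at 1.74 (adjusted p = 0.0541). Of the 8 called at BPA 250, 5 still passed: Dcn, Lum, Aspn, Thbs2 and Itga10. Lamb2 (-0.68, adjusted p = 0.0529), Plod3 (-0.64, adjusted p = 0.107) and Lamc3 (-1.51, adjusted p = 0.0608) did not.

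Thbs2 at BPA 25 and for the BPA mean, and Thbs1 and Nid2 at BPA 25000, still passed without those libraries. None of the 4 trend calls did, although the slopes stayed close to their values or grew: 0.20 for Plod3 (edgeR adjusted p = 0.114), 0.40 for Nid2 (adjusted p = 0.0723), 0.20 for Loxl1 (adjusted p = 0.181) and -0.17 for Crtap (adjusted p = 0.0605). More partner genes were called in other comparisons of that fit: 7 in place of 1 at BPA 25, 7 in place of 2 at BPA 25000, 4 in place of 1 for the BPA mean and 1 in place of 0 at EE2 0.5. The share of all genes called in that fit is not given here, so a gain particular to the partner genes cannot be read from these counts. For any difference 14 were called again, of which 7 were among the first 14 (Aspn, Dcn, Ddr1, Lamb2, Nid2, Plod3 and Thbs2).

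The collagens that were nearest to the threshold in the contrasts over several groups are given as values that did not pass (edgeR). For the BPA mean against vehicle they were, after Col11a1, Col4a3 (0.66, adjusted p = 0.294), Col14a1 (0.84, adjusted p = 0.302) and Col17a1 (-1.20, adjusted p = 0.331). For the EE2 mean they were Col1a1 as above, Col11a2 (0.76, adjusted p = 0.457), Col5a1 (-0.57, adjusted p = 0.469) and Col7a1 (0.35, adjusted p = 0.543). For EE2 0.5 over EE2 0.05 they were, after Col11a1, Col16a1 (0.42, adjusted p = 0.607), Col5a2 (-0.63, adjusted p = 0.607) and Col23a1 (1.59, adjusted p = 0.628). For the BPA mean over the EE2 mean Col23a1 had 0.98 (adjusted p = 0.475).

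RefSeq promoter windows were found for 22 of the 27 collagen genes and were compared with all 33469 windows of the table, 250 bases each. A TATA box was in 3 of 22 collagen windows (Col1a2, Col13a1 and Col17a1), against 12.9% of all windows, and a CCAAT box in 6 of 22, against 34.0%. A GC box was in 12 of 22, against 30.5%, beside a median GC content of 61.2% in collagen windows and 51.2% in all. The AP-1 letters were in none of the 22 and in 6.34% of all windows. The full estrogen response element, GGTCA and TGACC set 3 bases apart, was in none and in 0.024% of all windows, and the single arm in 6 (Col1a2, Col4a3, Col4a4, Col6a4, Col7a1 and Col15a1), against 35.4%. A single arm can lie inside a full element, and a match or its absence in these letters says nothing of binding.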

How the data were processed

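RNA of the uterus was sequenced on an Illumina instrument in 32 libraries of 8 groups of 4, grouped by the labels. The deposited file is a single table of raw counts per gene, made by the authors and left unscaled. Per the submitters' processing notes bcl2fastq, TopHat and edgeR were used with build rn5. For tool versions, annotation and strand setting, nothing is given in the sources used here. Symbols were assigned to identifiers from RefSeq tables of assembly GRCr8, used for names and promoter windows only: 17167 matched and 160, with 1.82% of counts, did not. No 2 libraries were identical.

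The fit used edgeR 4.0.16 under R 4.3.3. Genes passed filterByExpr (minimum count 10, minimum total 15), which left 13312, and were scaled by TMM. All 32 libraries entered 1 model of edgeR's quasi-likelihood test, with a mean for each group. Benjamini-Hochberg adjustment ran over all genes tested, and the threshold was 0.05. Collagens and the 6 partner lists (modifying and folding enzymes, processing and cross-linking enzymes, fibril-binding proteins, basement membrane partners, receptors and degrading enzymes) were read from that fit. No set test was made. Total counts of 11777809 to 24661856 put 3 counts at 0.255 CPM in the smallest library.

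The members, lists and tests were chosen with earlier results of these data known. In each comparison every called collagen is named, and if under 4 passed, those with the 4 lowest p-values are given and said not to pass; a panel of abundant and basement membrane collagens and the partner examples Serpinh1, P4ha1, Lox, Dcn, Bgn and Lamc1 were added. Cell type markers are given as summed CPM beside the results they touch.

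Alternatives were DESeq2 size factors, no filter, a filter of 1 CPM in 16 libraries, DESeq2 1.42.0, limma 3.58.1 voom with sample weights, only the groups compared, a threshold of 0.1, each library left out, and other class limits. Fits without the 4 libraries that stood apart (median correlation over 3 median absolute deviations low) and class sums with Col1a2 counts divided by 2 were added after the data were seen. The steps were tested on simulated counts.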

Additional observations from a re-analysis of the deposited data

Results flagged for a closer look

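In groups of 4, a library was singled out where its distance to the nearest of the other 3, over the group's range, exceeded Dixon's 95% critical value. Of 144 groups examined 12 had such a library. Chance gives about 1 in 20 for independent, normally distributed values. The values here were CPM without a log scale, from genes measured in the same libraries, and the sum of the other collagens holds Col6a2. This rate therefore cannot be set against the count found. At BPA 2500 the highest library stood apart for Col1a1 (10470 CPM, the others 2423 to 3526), Col1a2 (18620, the others 5297 to 7565), Col5a1 (637, the others 195 to 264), Col6a2 (6627, the others 2389 to 2874) and the sum of the other collagens (11050, the others 4243 to 5038). In that group the lowest library stood apart for Col5a2 (500.1 CPM, the others 722 to 742). At BPA 25000 the lowest library stood apart for Col3a1 (730 CPM, the others 3774 to 4375) and Col11a1 (2.03, the others 31.5 to 34.6). Single high libraries were found for Col17a1 at BPA 2.5 (88.3 CPM, the others 6.40 to 9.53) and in vehicle (131, the others 10.8 to 29.3), and for Col23a1 at BPA 250 (2.41, the others 0 to 0.318) and in vehicle (3.33, the others 0.431 to 0.652).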

How the results depend on the processing

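No paired analysis was possible because the labels give the libraries no replicate number, animal or litter. With limma voom more collagens were called than with edgeR: 2 at EE2 0.05, 14 at BPA 2.5 (5 higher and 9 lower, Col1a1, Col1a2, Col3a1 and Col4a1 among the lower), 3 at BPA 25, 2 at BPA 250, 5 at BPA 25000, 5 for the BPA mean, 11 for the trend over BPA dose and 17 for any difference. At BPA 250 the count was 2 with DESeq2 size factors, the filter of 1 CPM in 16 libraries, DESeq2, only the groups compared or a threshold of 0.1. With only the groups compared, 0 were called at BPA 2.5. DESeq2 called 1 for the BPA mean and 6 for any difference. A threshold of 0.1 gave 1 at BPA 25 and 6 for any difference. Without the libraries that stood apart, chosen after seeing the data, 0 were called at BPA 2.5, 1 at BPA 25 (Col11a1), 1 at BPA 25000 (Col11a1) and 2 for the BPA mean (Col5a2 and Col11a1), and the median collagen log2 fold change at BPA 2.5 was 0.20 in place of -0.12. Adding Col7a1, Col15a1 and Col18a1 to the type IV class moved its median sum to 1170 CPM, by construction. For DESeq2 and limma voom the shares of all genes called are given with the results above, and for the other settings they are not given here. The cause of the other shifts was not tested.

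Leaving out 1 library at a time, the count was 0 to 3 at BPA 2.5, 0 to 3 at BPA 250, 0 to 1 at BPA 25000, for the BPA mean and for the trend, 0 to 4 for any difference, and 0 in the other comparisons. At BPA 2.5 it was 0 without library 1 or 3 or without vehicle library 1 or 3, and 1 without vehicle library 2 or 4. At BPA 250 it was 3 without library 2. It was 1 without BPA 25000 library 3 at BPA 25000 and for the BPA mean, and 1 for the trend without BPA 2.5 library 4. Col23a1 at BPA 2.5 then gave a log2 fold change of 2.59 to 4.34 (edgeR adjusted p from 0.0154 to 0.132) and Col4a3 0.99 to 1.75 (0.0125 to 0.175), each losing its call in 5 of 8 such fits. In the test of any difference Col11a1 lost its call in 25 of 32 and Col23a1 in 2 of 32. Since 3 counts were 0.255 CPM in the smallest library, the levels of Col4a4 and Col9a2 rest on few counts.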
